A study of Mus musculus with 180 samples.

Results

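In mouse embryonic stem cells (ESCs), 578 sites showed opposite strain differences in TRIM28 binding and in chromatin accessibility. Each site is a TRIM28 region of the ChIP-seq table together with the ESC ATAC-seq region that overlaps it most. A pair was taken where log2((D2 mean + 0.1)/(B6 mean + 0.1)) was above 1 in one table and below -1 in the other, and where the 3 lines of each strain did not overlap in either table. Of 94211 TRIM28 regions, 53198 overlapped an ESC ATAC region. At 403 of these pairs TRIM28 was higher and accessibility lower in D2 (the D2-bound sites), and at 175 pairs TRIM28 was lower and accessibility higher in D2 (the B6-bound sites, on 174 distinct ATAC regions, since 1 ATAC region served 2 TRIM28 regions). The sites were thus chosen on the parental ESC TRIM28 and ATAC values. Those values are given below as a description without a test, and tests are given for EpiLC, P300, POU5F1, F1 and RNA libraries.

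The series covers 180 samples: ESCs, epiblast-like cells (EpiLCs, a state that follows naive pluripotency) and embryoid bodies, of which the last were not used. The parental lines came from C57BL/6J mice (B6; lines B41, B44 and B51) and DBA/2J mice (D2; lines D29, D55 and DAC203), the F1 lines F116, F117 and F124 from their hybrid B6D2F1/J, and 33 lines from BXD strains, inbred mosaics of B6 and D2 chromosomes. No group carried an engineered allele or a drug treatment in the labels. TRIM28 and ATAC had 1 library per parental line, and P300 and POU5F1 were measured in B41, B51, D29 and D55 only. Each BXD line had 1 ATAC library per state. Replicates are different cell lines, and the sources used here do not say whether each came from its own embryo. The p-values rest on the spread between single libraries of different lines, moderated by the spread pooled over all regions or genes. Spread between lines and spread between libraries cannot be told apart. Recovered reads in regions ranged from 16300000 to 24300000 per parental ATAC library and from 5630000 to 6870000 per TRIM28 library, apart from 17100000 for D55. In bulk libraries, fewer cells with an open site and a site less open in every cell cannot be told apart.

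TRIM28 (KAP1) is a co-repressor that does not itself recognise DNA. KRAB zinc finger proteins, most of them encoded in gene clusters that differ between mouse strains, bind particular sequences and bring TRIM28 there, and TRIM28 in turn recruits the histone methyltransferase SETDB1 and HP1 proteins, which form compact H3K9-methylated chromatin. In ESCs this system is best known for silencing retrotransposons. ATAC-seq reads how accessible chromatin is to a transposase. P300 is an acetyltransferase found at active enhancers, and POU5F1 is a core pluripotency transcription factor.

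The sequences were read from the RefSeq mm10 (GRCm38.p6) genome, the build of the files. It represents B6, so D2 variants are not shown. Sites are numbered within each class by the smaller of their absolute TRIM28 and ATAC log2 differences, largest first. The first 4 sequences are shown because they come from sites on 4 chromosomes and yet are nearly the same sequence: they carry one 24-base word, in capitals, and sites 3, 5 and 6 have 107, 112 and 114 of 120 bases in common with site 2. They are written on the strand that reads the word, which is the minus strand at sites 2, 3 and 5 (chr3:71447661-71447780, chr9:39531477-39531596, chr10:36136202-36136321) and the plus strand at site 6 (chr4:106177024-106177143).
D2-bound site 2: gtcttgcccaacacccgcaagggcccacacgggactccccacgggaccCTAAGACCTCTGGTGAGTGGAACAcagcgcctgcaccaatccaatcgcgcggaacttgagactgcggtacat
D2-bound site 3: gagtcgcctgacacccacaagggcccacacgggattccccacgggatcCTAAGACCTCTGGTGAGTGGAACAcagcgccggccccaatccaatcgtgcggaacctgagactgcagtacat
D2-bound site 5: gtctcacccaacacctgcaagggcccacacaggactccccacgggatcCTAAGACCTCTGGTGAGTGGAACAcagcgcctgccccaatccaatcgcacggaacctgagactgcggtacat
D2-bound site 6: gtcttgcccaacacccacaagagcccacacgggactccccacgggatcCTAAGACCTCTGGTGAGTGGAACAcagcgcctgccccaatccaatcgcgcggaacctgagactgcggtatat

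For contrast, the next 3 are the central 120 bases of sites outside that group, on the plus strand with CG dinucleotides in capitals: D2-bound site 4 (chr12:17184308-17184427), B6-bound site 1 (chr17:54396609-54396728) and B6-bound site 3 (chr5:43825502-43825621). They hold 4, 1 and 1 CG dinucleotides, against 8, 7, 5 and 7 in the first 4 sequences.
D2-bound site 4: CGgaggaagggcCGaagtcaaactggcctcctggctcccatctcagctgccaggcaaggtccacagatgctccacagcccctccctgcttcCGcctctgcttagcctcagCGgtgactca
B6-bound site 1: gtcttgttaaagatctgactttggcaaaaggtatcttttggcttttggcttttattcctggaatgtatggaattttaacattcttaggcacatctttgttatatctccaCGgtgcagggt
B6-bound site 3: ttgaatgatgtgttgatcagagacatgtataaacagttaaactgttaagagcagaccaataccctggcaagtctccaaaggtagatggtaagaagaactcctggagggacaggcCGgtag

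When the 300 bases around the centre of each ATAC region were aligned with each other (blastn, at least 60 aligned bases, e-value under 1e-6), 278 of the 578 windows were linked into 1 group through chains of matches, and the best-connected site matched 218 of the 278 directly. It held 270 of the 403 D2-bound sites, called the shared-sequence sites below, and 8 of the 175 B6-bound sites. The next largest group held 13 sites, 4 D2-bound and 9 B6-bound. The other 133 D2-bound sites did not belong to the large group. The shared-sequence windows had a median GC content of 62% and 14 CG dinucleotides, against 49.0% and 4 for the other D2-bound sites, 48.3% and 4 for the B6-bound sites, and 52.0% and 6 for all 53198 pairs. The sequence of the windows was not used by the selection.

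The shared-sequence sites lay in copied DNA. Bases covered by 31-base words that occur at least 20 times in the genome made up over 50% of the window at 243 of the 270 (90%), against 8.74% of all pairs. A run of such words of at least 1000 bases started or passed within 500 bases of the centre at 252 of them (93.3%), against 4.87% of all pairs. Of the pairs with both TRIM28 and accessibility higher in B6, 33.2% of windows were over that share and 36.6% lay within 500 bases of a run (median run length 6455 bases), and 205 of those 751 windows (27.3%) matched the sequence group. At the shared-sequence sites the runs had a median length of 6389 bases among the 261 sites with a run within 5000 bases. At 255 of the 261, the window centre lay upstream of the midpoint of the longest open reading stretch of the run. A centre inside the first part of that stretch thus also counts as upstream. The stretch reached 1000 codons or more at 44 sites, 43 of them upstream of its midpoint. Sites beside the same run were counted separately. The 24-base word, searched on both strands, was present in 161 of the 270 windows, in 0 B6-bound windows, in 33 of the 751 windows with both signals higher in B6 and in 490 of the windows of all pairs (0.921%). The word was found in the D2-bound windows, so its count there is a description. Which repeat family the copies belong to was not analysed here. The sources used here do not say how reads from near-identical copies were assigned, so copies may share reads and the 270 sites are not 270 independent measurements.

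B6-bound sites more often lay near copied DNA than in it. A run of repeated words covered the window centre at 3 of 175 B6-bound sites and came within 500 bases at 23 (13.1%), but within 5000 bases at 102 (58.3%, against 26.3% of the other D2-bound sites, 53.1% of the pairs with both signals higher in B6 and 13% of all pairs). Those runs had a median length of 4894 bases, and 38 of the 102 measured 4000 to 5500 bases and 26 measured 7000 to 8000 bases. The 6-base motif TGCCGC, which the KRAB zinc finger protein ZFP57 recognises when methylated, was present on either strand in 3.23% of D2-bound, 6.86% of B6-bound and 10.9% of all windows. The octamer ATGCAAAT, a POU5F1 motif, was present in 1.49%, 4.0% and 3.02%. A match is a description of the letters, not of binding.

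Most sites were far from gene starts. By the mm10 gene annotation, 271 of the 403 D2-bound sites were intergenic, 109 were intronic, 10 overlapped an exon and 13 lay within 1 kb of a transcription start. The B6-bound sites divided into 101 intergenic, 59 intronic, 3 exonic and 12 near a start. D2-bound sites were spread over 21 chromosomes and B6-bound sites over 20. TRIM28 regions were shortest at the shared-sequence sites, with a median of 1375.5 bases against 3433 at the other D2-bound sites, 3051 at the B6-bound sites and 1959 over all pairs.

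**Figure D1:**
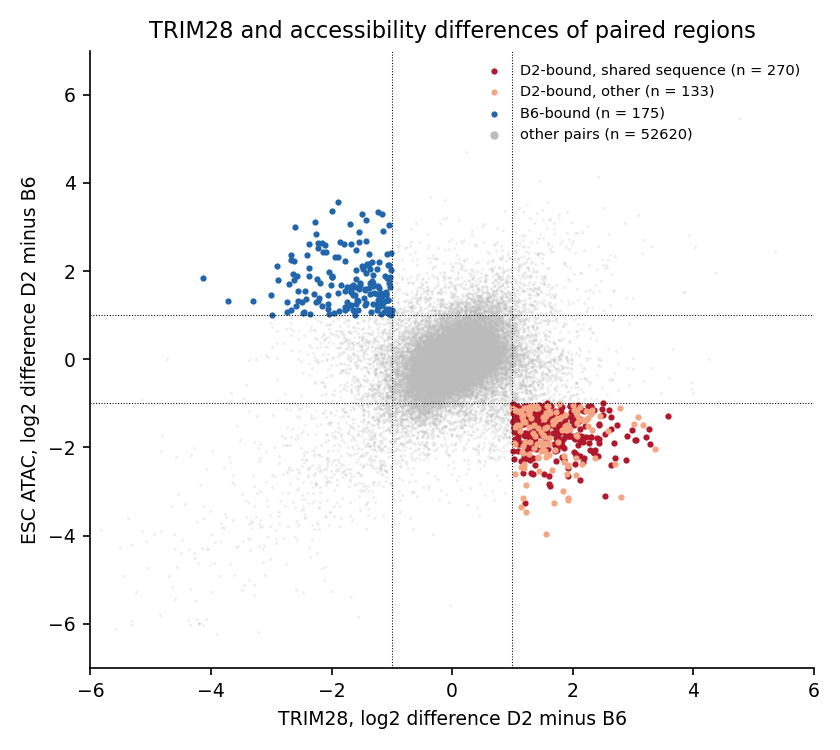
TRIM28 log2 difference (x axis, D2 minus B6) against ESC ATAC log2 difference (y axis) for the paired regions, with 5 pairs outside the plotted range. The D2-bound sites fill the lower right corner and the B6-bound sites the upper left, as the selection requires, and the colours separate the D2-bound sites with the shared sequence from the others.

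The values that chose the sites were as follows, on the linear normalised scale and in the order B41, B44, B51 for B6 and D29, D55, DAC203 for D2, which is kept below. The median D2-bound site had a TRIM28 signal of 3.89, 3.97 and 4.0 in the B6 lines and 14.8, 11.4 and 12.1 in the D2 lines, with an ESC ATAC signal of 3.35, 3.57 and 3.70 in B6 and 1.02, 1.06 and 1.14 in D2. The median B6-bound site had a TRIM28 signal of 22.9, 21.4 and 20.8 in B6 and 6.03, 6.35 and 6.27 in D2, with an ATAC signal of 1.62, 1.47 and 1.5 in B6 and 5.12, 4.97 and 4.81 in D2. Among the D2-bound sites, the TRIM28 medians in D29, D55 and DAC203 were 12.8, 9.9 and 10.5 at the shared-sequence sites and 23.6, 20.7 and 20.5 at the others, the latter near those of the B6-bound sites in B6. The selection took 0.758% of all pairs as D2-bound and 0.329% as B6-bound. Over whole tables, limma (adjusted p under 0.05) called 19.7% of TRIM28 regions higher and 18.4% lower in D2, and 22.2% of ESC ATAC regions higher and 24.7% lower. Nothing is read from those shares for the sites, since the selection used the same contrasts.

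Both tables moved in the same direction, beyond the same limits, at 358 pairs higher in D2 and at 751 pairs higher in B6. At the limit, the D2-bound site at chr2:39892502-39893157 had log2 differences of 2.503 for TRIM28 and -1.001 for ATAC, while the pair at chr6:42049249-42049921 (1.634 and -0.998) fell outside. The B6-bound site at chr4:70421728-70422380 (-1.010 and 1.002) was just inside, and the pair at chr2:104095511-104097708 (-1.820 and 0.998) just outside. Applied without each line in turn, the rule found between 370 (without D29, 359 of them among the 403) and 430 D2-bound sites (without DAC203, 386 of them among the 403), and between 168 and 184 B6-bound sites. Without the deeply sequenced D55 it found 426 D2-bound sites, 390 of them among the 403, and 175 B6-bound sites, 164 of them among the 175.

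Of the sites, D2-bound site 1 (chr2:140271582-140272313, in an intron of Sel1l2) had the highest rank. Its TRIM28 signal was 2.64, 1.79 and 2.28 in B6 and 18.4, 15 and 15.7 in D2, and its ESC ATAC signal was 3.19, 3.08 and 2.93 in B6 and 0.390, 0.133 and 0.262 in D2. The shared-sequence site 6 (chr4:106176708-106177690, intergenic) had TRIM28 signals of 3.89, 6.15 and 2.71 in B6 and 36.8, 23.8 and 24.2 in D2, with ATAC signals of 4.66, 5.0 and 5.58 and of 1.17, 0.754 and 1.05. At both sites each D2 line was above all B6 lines in TRIM28 and below all of them in ATAC. D2-bound site 4 (chr12:17183788-17184947, intergenic, 7479 bases from the start of Kcnf1, a potassium channel subunit gene) had the highest TRIM28 signal among the 10 D2-bound sites ranked first, 72.3, 54.5 and 57.6 in D2 against 8.89, 9.99 and 8.99 in B6, with ATAC signals of 1.41, 1.86 and 1.14 in D2 against 7.81, 7.91 and 8.30.

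The next D2-bound sites by rank were of both kinds. Site 7 (chr8:41075251-41076708, in an intron of Mtus1, a microtubule-associated protein gene), outside the shared-sequence group, had TRIM28 signals of 9.17, 7.68 and 9.70 in B6 and 51.2, 45.5 and 41.4 in D2. Sites 8, 9 and 10 carried the shared sequence and lay in an intron of Mgam (chr6:40722326-40723117), between genes (chr9:18261617-18262375) and in an intron of Trhde (chr10:114531735-114532665). Mgam and Trhde encode enzymes, an intestinal maltase-glucoamylase and a hormone-degrading peptidase. Their TRIM28 log2 differences were 2.42, 2.19 and 2.18, and their ESC ATAC differences -2.19, -2.23 and -2.34. In the F1, site 10 had log2 values of 0.97, 0.91 and 1.20, between those of B6 (2.29, 2.32 and 2.56) and D2 (-0.01, -0.13 and 0.33), so that not every shared-sequence site was at the D2 level there.

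Of the B6-bound sites, site 1 (chr17:54396183-54397154, intergenic) had TRIM28 signals of 18.6, 15.5 and 14.7 in B6 and 1.93, 3.01 and 2.84 in D2, and ATAC signals of 1.12, 0.849 and 1.08 and of 9.06, 9.41 and 8.18. Sites 2 and 3 (chr5:43836515-43838000 and chr5:43825244-43825879) both lay in Bst1, which encodes a cell-surface ADP-ribosyl cyclase, on either side of a run of 7258 bases of repeated words. Their TRIM28 signals were 35.1, 38.8 and 31.8 against 6.16, 7.06 and 6.98 at site 2, and 41, 44.7 and 41.7 against 6.55, 8.37 and 8.75 at site 3. Because they flank the same run, they are neighbours and not separate cases. B6-bound site 8 (chr8:77448354-77448902, in an intron of Arhgap10) had the largest TRIM28 signal of the first 10, 148, 139 and 127 in B6 and 25.5, 20.8 and 20.5 in D2. The other B6-bound sites of the first 10 were site 4 (chr7:86038938-86039491, intergenic), site 5 (chr10:82570465-82571456, intergenic), site 6 (chr19:42343951-42344659, in an intron of Crtac1), site 7 (chr1:37283922-37284456, intergenic) and site 9 (chr14:17599605-17600206, intergenic). Their TRIM28 log2 differences were -2.67, -2.27, -2.67, -2.26 and -2.23 and their ESC ATAC differences 2.37, 3.12, 2.26, 2.84 and 2.63. Site 5 had the largest ATAC difference of these, with 1.22, 1.25 and 1.22 in B6 and 12.1, 10.8 and 11.5 in D2.

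Where a site had an EpiLC region, the strain difference in accessibility was mostly also present in EpiLCs, whose libraries the selection did not use. Of the 403 D2-bound sites, 289 (71.7%) overlapped a region of the EpiLC ATAC table, and 284 of these (98.3%) were lower and 2 higher in D2 by limma at an adjusted p under 0.05. Over all 100415 EpiLC regions, 32.6% were lower and 25.6% higher. The median log2 difference was -1.85 at the D2-bound sites (-2.66 to -1.03 from the 10th to the 90th percentile), against -0.05 over all regions. The median site had an EpiLC signal of 4.10, 4.18 and 4.19 in the B6 lines and 1.02, 0.962 and 1.04 in the D2 lines. Of the 175 B6-bound sites, 99 (56.6%) had an EpiLC region, 95 of these (96.0%) were higher and 2 lower in D2, and the median difference was 1.79 (median signal 1.54, 1.51 and 1.45 in B6, 5.43, 5.25 and 5.36 in D2). Sites without an EpiLC region have no EpiLC value.

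**Figure D2:**
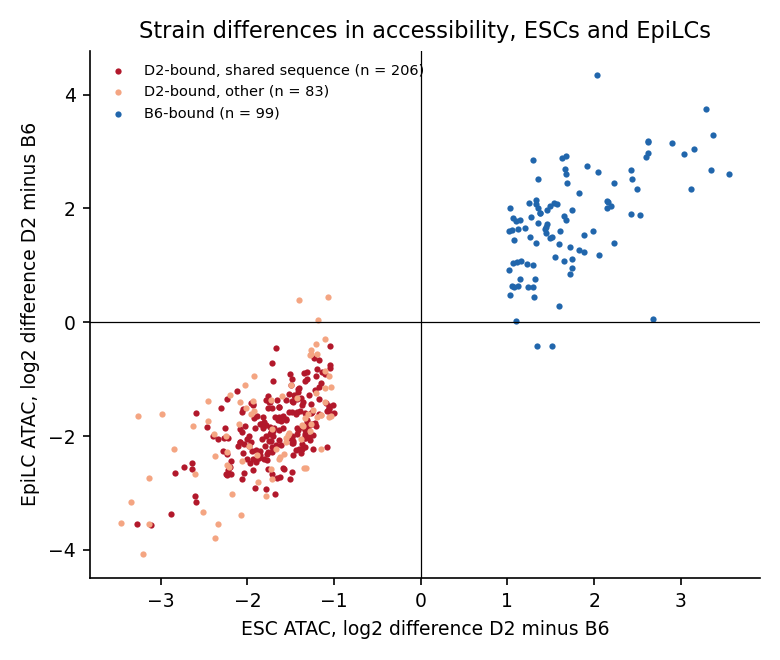
ESC ATAC log2 difference (x axis, D2 minus B6) against EpiLC ATAC log2 difference (y axis) for the sites with an EpiLC region. The D2-bound sites lie at the lower left (284 of 289 called lower in EpiLCs) and the B6-bound sites at the upper right (95 of 99 called higher), with few sites on the other side of the zero line.

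The 2 subsets of D2-bound sites had like EpiLC differences. Of 206 shared-sequence sites with an EpiLC region, 204 were lower and 0 higher, with a median of -1.85, and of 83 other D2-bound sites, 80 were lower and 2 higher, with a median of -1.81. Where both ESC signals had been higher in D2, 206 of 226 pairs with an EpiLC region were higher in D2 EpiLCs, and where both had been higher in B6, 459 of 505 were lower. Persistence into EpiLCs was thus not a feature of opposite sites alone. D2-bound site 4 had an EpiLC signal of 8.94, 8.53 and 9.51 in B6 and 0.668, 0.350 and 0.719 in the D2 lines (log2 difference -3.79, SE 0.173, limma adjusted p = 3.02e-23). The shared-sequence site 6 had 7.41, 7.75 and 8.22 in B6 and 0.904, 0.875 and 1.83 in the D2 lines (-2.67, SE 0.212, limma adjusted p = 6.35e-08). B6-bound site 2 had 0.838, 0.669 and 1.4 in B6 and 8.53, 9.27 and 9.46 in the D2 lines (3.16, SE 0.168, limma adjusted p = 4.51e-16). In none of the 3 did the strains overlap.

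Called EpiLC differences against the ESC direction numbered 4. At chr14:98974174-98974974 (D2-bound, intergenic) the EpiLC signal was 6.10, 7.70 and 7.96 in B6 and 10.3, 9.54 and 8.67 in the D2 lines (0.39, SE 0.0918, limma adjusted p = 3.06e-04), whereas the ESC signal had been 5.12, 5.58 and 5.90 in B6 and 2.39, 1.46 and 2.27 in D2. The D2-bound site at chr7:134681673-134683228, in an intron of Dock1 (a Rac activator gene), had 1.58, 1.39 and 1.34 in B6 and 2.24, 2.10 and 1.69 in the D2 lines (0.45, SE 0.188, limma adjusted p = 0.0377), a call lost with quantile scaling (limma adjusted p = 0.122) and without B44, B51, D29 or D55. The B6-bound site at chr15:79868735-79869796 had 7.73, 7.70 and 8.89 in B6 and 5.74, 6.47 and 5.93 in the D2 lines (-0.41, SE 0.0929, limma adjusted p = 1.43e-04). At the fourth, the B6-bound site at chr1:7319078-7320443 (-0.42), the lines of the strains overlapped.

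P300 and POU5F1 regions were scarce at the D2-bound sites. Only 22 of 403 (5.46%) overlapped a P300 region and 37 (9.18%) a POU5F1 region, and of the 270 shared-sequence sites 1 and 3 did. Of the 133 other D2-bound sites, 21 (15.8%) and 34 (25.6%) did. Of the B6-bound sites, 61 (34.9%) overlapped a P300 region and 54 (30.9%) a POU5F1 region, while among the pairs outside all 4 classes 56.7% and 51.1% did. The shares were 18.1% and 23.3% of pairs with both signals higher in B6, and 48.9% and 35.5% of those with both higher in D2. Where a region existed, P300 was lower in D2 at 15 of the 22 D2-bound sites and higher at 0 (limma, adjusted p under 0.05; 5.16% of all P300 regions were lower and 6.17% higher), with a median log2 difference of -0.95. At the B6-bound sites P300 was higher in D2 at 22 of 61 and lower at 0, with a median of 0.71. Where both TRIM28 and accessibility were higher in D2, P300 was higher at 120 of 175 pairs with a region (median 1.20). Where both were higher in B6, P300 was lower in D2 at 108 of 136 (median -1.28). A P300 difference in the direction of accessibility was thus not a feature of opposite sites alone. Without B51, the count of D2-bound sites with lower P300 was 5, without B41 it was 7, and without D55 the count of B6-bound sites with higher P300 was 36.

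For POU5F1, 23 of 37 D2-bound sites were lower in D2 and 0 higher (4.36% of all POU5F1 regions were lower and 6.48% higher by limma), with a median of -0.94. At the B6-bound sites, 33 of 54 were higher and 0 lower, with a median of 0.97. Without D55 these counts were 10 and 17, without D29 the D2-bound count was 12, and without B51 it was 15. All but 1 of the D2-bound sites with a called POU5F1 difference, and all 15 with a called P300 difference, were outside the shared-sequence group. Pairs with both TRIM28 and accessibility higher in D2 had higher POU5F1 at 109 of 127 with a region. Those with both higher in B6 had lower POU5F1 in D2 at 130 of 175, so this too was not a feature of opposite sites alone. With 2 lines per strain, small p-values rest mostly on the spread pooled over regions. The P300 and POU5F1 calls cover only sites with a region, which may be listed only through the strain with more signal.

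The D2-bound site at chr5:72901130-72903680, 11899 bases from the start of Slain2 (a microtubule plus-end protein gene), had a P300 signal of 58.3 and 46.4 in B41 and B51 and of 9.11 and 7.56 in D29 and D55 (log2 difference on the value + 1 scale -2.51, SE 0.221, limma adjusted p = 6.19e-16). Its POU5F1 signal was 52.4 and 61.3 in B6 and 7.92 and 11.6 in the D2 lines (-2.44, SE 0.198, limma adjusted p = 1.07e-31). Among the B6-bound sites, chr10:8551226-8553159, 33367 bases from the start of Ust (a uronyl sulfotransferase gene), had 10.7 and 9.09 in B6 against 100 and 74.5 in D2 for P300 (3.01, SE 0.198, limma adjusted p = 2.32e-22) and 10.5 and 10.2 against 94.0 and 90.2 for POU5F1 (3.04, SE 0.176, limma adjusted p = 1.84e-62). The B6-bound site at chr1:7124378-7126875, in an intron of Pcmtd1, differed by 2.76 in P300 and had POU5F1 signals of 23.1 and 24 against 131 and 143 (2.49). The lowest P300 difference among the D2-bound sites was at chr16:90298812-90300883, between genes, with P300 signals of 27.8 and 36.4 in B41 and B51 against 4.24 and 4.86 in D29 and D55 (-2.57, SE 0.296, limma adjusted p = 7.66e-11). The lowest POU5F1 difference was at chr8:71181754-71182915, also intergenic, with POU5F1 signals of 17 and 15.1 in B41 and B51 against 0.792 and 4.26 in D29 and D55 (-2.47, SE 0.467, limma adjusted p = 7.16e-06). At these 5 sites the strains did not overlap in a factor whose difference is given.

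In F1 hybrid ESCs, the shared-sequence sites were mostly nearly as closed as in D2. The other D2-bound sites and the B6-bound sites mostly lay between the parents. In the log2 table that holds the F1 lines, the median shared-sequence site had 1.66, 1.76 and 1.85 in the B6 lines, 0.13, 0.13 and 0.17 in the D2 lines and 0.20, 0.19 and 0.27 in F116, F117 and F124. The median of the other D2-bound sites was 2.29 in each B6 line, 0.57, 0.66 and 0.64 in D2 and 1.55, 1.52 and 1.48 in the F1. The B6-bound sites had 0.80, 0.67 and 0.69 in B6, 2.39, 2.35 and 2.30 in D2 and 1.73, 1.75 and 1.78 in the F1. The 3 F1 lines were close to each other in every set.

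Against the mean of the parental log2 values, limma (adjusted p under 0.05) called the F1 lower at 184 and higher at 1 of the 270 shared-sequence sites, with a median difference of -0.72. At the other 133 D2-bound sites it was lower at 21 and higher at 28, with a median of 0.13. Together that made 205 of 403 D2-bound sites lower and 29 higher (median -0.57), and at the 175 B6-bound sites the F1 was higher at 70 and lower at 10 (median 0.31). Over all 241241 regions of that table, 3.32% were lower and 4.86% higher. Pairs with both signals higher in D2 were higher in the F1 at 141 of 358, and pairs with both higher in B6 at 375 of 751. A midpoint of log2 values lies below the log2 of the mean of the linear values: against the latter, given without a test, the median was 0.03 for the B6-bound sites and -0.74 for the D2-bound sites, and for the other 133 D2-bound sites it turned from 0.13 to -0.06. The count of 70 B6-bound sites was 44 without F124 and 30 with limma without trend and robust. The parental mean comes from the libraries that chose the sites through the difference between the strains, and the F1 libraries had no part in that choice.

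On the linear scale, with 0 at the B6 mean and 1 at the D2 mean, the median F1 position was 0.98 at the shared-sequence sites (0.87 to 1.05 from the lower to the upper quartile), and F116, F117 and F124 gave 0.97, 0.97 and 0.94. Of the 270 sites, 235 were above 0.75, 34 between 0.25 and 0.75, and 1 below 0.25. The other D2-bound sites had a median of 0.55 (0.45 to 0.76), with 88 of 133 between 0.25 and 0.75. B6-bound sites had a median of 0.53, with 126 of 175 in that middle range, and pairs with both signals higher in D2 or in B6 had 0.52 and 0.47. The parental values in this position are those the selection used, so the position is a description. Among the shared-sequence sites with at most 50% repeated words in the window, 27 in number, the median was 0.91, and among the 15 other D2-bound sites within 500 bases of a run it was 1.00.

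**Figure D3:**
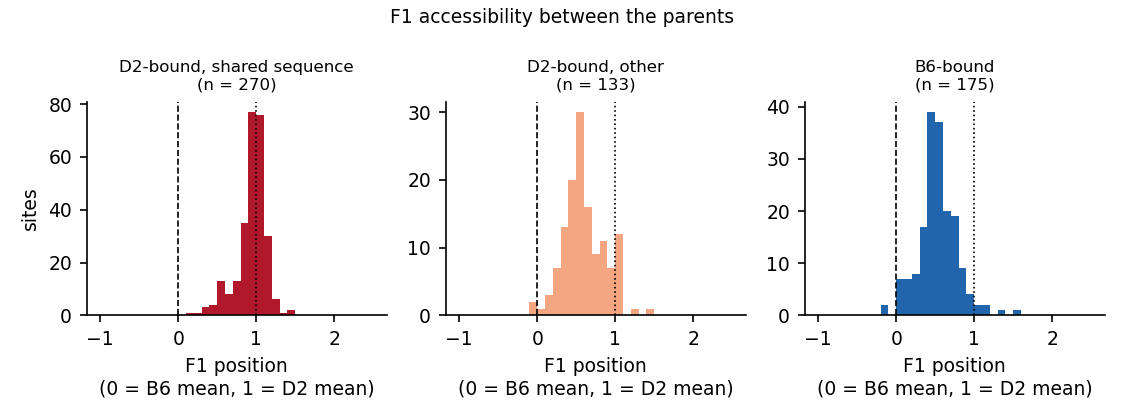
Histograms of the F1 position on the linear scale (x axis, 0 at the B6 mean, dashed, and 1 at the D2 mean, dotted) with the number of sites on the y axis, for the shared-sequence D2-bound, other D2-bound and B6-bound sites. The shared-sequence sites pile up at 1 (median 0.98), the other sets near the middle (0.55 and 0.53).

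The shared-sequence site 6 had deposited log2 values of 2.26, 2.36 and 2.51 in B6, 0.36, -0.20 and 0.22 in D2 and 0.26, 0.00 and 0.27 in the F1 (F1 minus parental mean -1.07, SE 0.155, limma adjusted p = 2.21e-05). The 3 F1 lines fell within the range of the D2 lines. D2-bound sites with the largest difference were chr4:8118698-8119796, 627 bases from the start of Gm11800 (-1.91, SE 0.200, limma adjusted p = 7.08e-08), where the F1 lines had -1.18, -1.18 and -1.54 and lay below D2 (-0.24, 0.40 and -0.08), and chr14:27688164-27689179 in an intron of Erc2 (-1.69). Both had a run of repeated words over the centre, but neither belonged to the shared-sequence group. They belonged to another group of 3 D2-bound sites linked by sequence, so they may share reads and are not separate cases.

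At the other end were D2-bound sites at which the F1 was nearly as open as B6. At chr12:116576157-116578518, in an intron of Ptprn2 (a phosphatase-like vesicle protein gene), the values were 3.45, 3.35 and 3.51 in B6, -0.01, 0.24 and 0.51 in D2 and 3.24, 3.40 and 3.16 in the F1 (1.42, SE 0.108, limma adjusted p = 4.17e-11). At chr8:108665790-108666860, in an intron of the homeobox gene Zfhx3, the difference was 1.39 (SE 0.129, limma adjusted p = 4.73e-09), with 2.71, 2.58 and 2.67 in the F1 and 3.0, 2.95 and 2.71 in B6. Neither belonged to the shared-sequence group. Among the first 10 B6-bound sites, site 10 (chr9:121328386-121330119, in an intron of Trak1, a mitochondrial transport adaptor gene) had the largest F1 difference, 1.01 (SE 0.112, limma adjusted p = 2.80e-07), with 3.08, 3.09 and 3.05 in the F1, 1.13, 0.82 and 0.42 in B6 and 3.43, 3.34 and 3.26 in D2.

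Across the 33 BXD lines, the shared-sequence sites moved together. Each line was placed on the D2 or the B6 side of the midpoint of the parental log2 means at every site. In ESCs, 13 lines had at least 75% of the 270 sites on the D2 side, 19 lines had at most 25%, and only BXD71 lay between. The share ran from 1.11% (BXD43) to 98.1% (BXD45). At the other D2-bound sites it ran only from 24.8% to 74.4%, and 32 lines lay between 25% and 75%; at the B6-bound sites it ran from 26.3% (BXD65) to 75.4% (BXD85), again with 32 lines between. The number of lines on the D2 side per site had a median of 14 at the D2-bound sites (4 to 30) and of 18 at the B6-bound sites (4 to 32).

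In EpiLCs the share of shared-sequence sites on the D2 side ran from 1.46% (BXD154) to 92.2% (BXD85), and 32 of 33 lines lay on the same side of 50% as in ESCs, all but BXD71. By this count the lines were less far apart than in ESCs: 6 had at least 75% of the 206 sites on the D2 side, 19 at most 25%, and 8 lay between. The count depends on the midpoint. With a midpoint of linear values, the median number of lines on the D2 side per site moved from 12 to 15 in EpiLCs and from 14 to 14.5 in ESCs. The median number of lines below all parental lines was 0 in EpiLCs and 4 in ESCs. The cells of a line in the 2 states share a genome, and the libraries are separate. Per site, the median number of lines on the same side in both states was 29 of 33 at the D2-bound and 26 of 33 at the B6-bound sites.

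**Figure D4:**
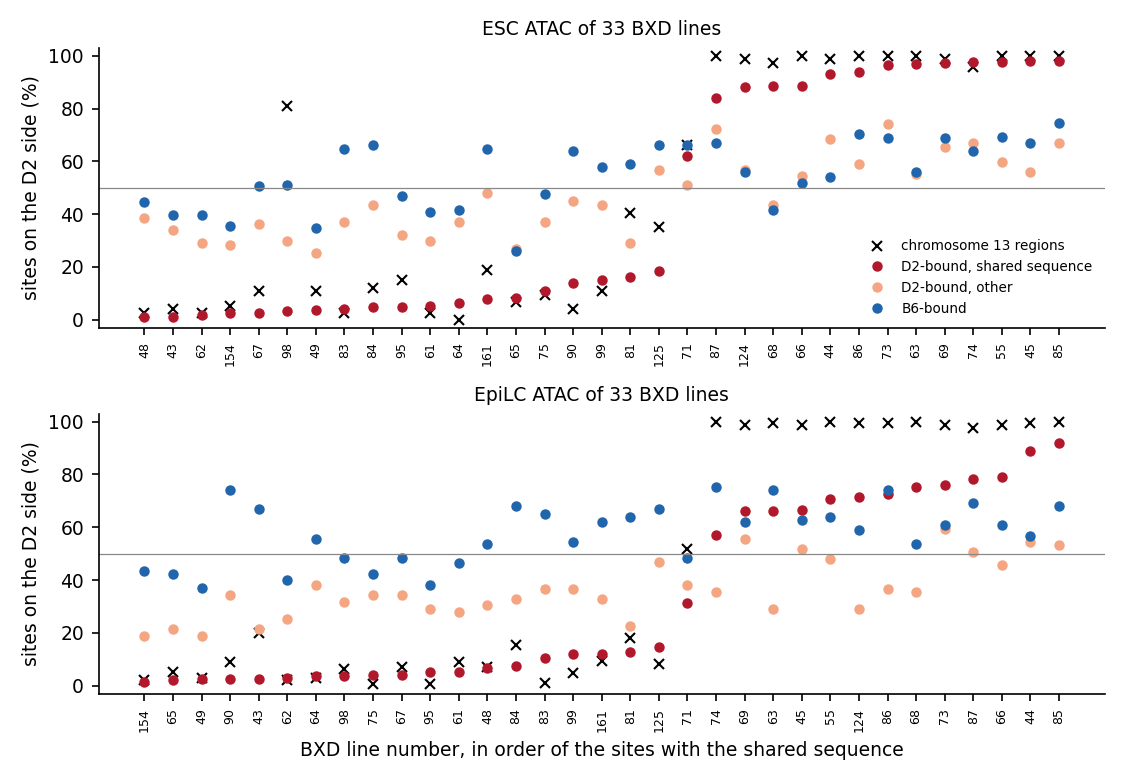
Percentage of sites nearer D2 than the parental midpoint (y axis) in each of 33 BXD lines (x axis, ordered by the shared-sequence sites), in ESCs and in EpiLCs, for the 3 sets and for the regions of chromosome 13 described in the text. Sites on chromosome 13 are left out. In ESCs the shared-sequence sites step from near 0 to near 100% (1.17% to 98.1%), mostly close to the chromosome 13 regions. In EpiLCs, lines with nearly all chromosome 13 regions on the D2 side have 56.9% (BXD74) to 91.9% (BXD85) of the sites there. The other sets stay mostly between 25% and 75%.

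The region most like each site was looked for over the 33 lines among 1702 ESC ATAC regions that were not sites, had parental lines apart with strain means over 2 log2 units apart, and had 7 to 26 lines on the D2 side. Likeness was Pearson's r of log2 values, with each region's values oriented so that higher meant nearer D2. It is a description over lines that share ancestry, with no p. The most alike region was the one with the largest absolute r, so its r could be negative. For the shared-sequence sites the most alike region was on another chromosome at 235 of 270 sites, on the same chromosome but over 10 Mb away at 21, and within 10 Mb at 14, with a median r of 0.93. The counts were 59, 2 and 72 for the other D2-bound sites (median r 0.87) and 71, 9 and 95 for the B6-bound sites (0.82). Neighbouring regions were thus the most frequent best match in both of the latter sets and the least frequent in the former. The candidates were not screened for the shared sequence. A best match of a shared-sequence site may therefore be another copy that shares reads with it.

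Of the 235 best matches of shared-sequence sites on another chromosome, 41 lay in chr13 between 65 and 68 Mb, a stretch with many KRAB zinc finger genes. So did 11 of 59 for the other D2-bound sites and 4 of 71 for the B6-bound sites. Of the 1702 candidates, 74 lay there. Such matches were thus not particular to the shared-sequence sites. The mean of the 74 candidate regions there, oriented in the same way, was used as a chromosome 13 pattern. It was chosen after these matches were seen, and its regions were not screened for the shared sequence. In 32 of 33 lines, most shared-sequence sites off chromosome 13 were on the same parental side as most of these regions, in ESCs and, with 170 regions, also in EpiLCs. The exception in ESCs was BXD98, with 81.1% of the chromosome 13 regions but 3.5% of the sites on the D2 side, and in its EpiLC library 6.47% and 3.55% were. The ESC and EpiLC libraries labelled BXD98 thus lay on different parental sides at the chromosome 13 regions, and whether either label is wrong was not tested. The exception in EpiLCs was BXD71 (51.8% and 31.5%). For the other D2-bound sites the count was 30 lines in ESCs and 25 in EpiLCs, and for the B6-bound sites 24 and 22.

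Site by site, the r with the chromosome 13 pattern had a median of 0.88 over the 257 shared-sequence sites off chromosome 13, and exceeded 0.8 at 195. Its median was 0.18 over 127 other D2-bound sites (22 above 0.8) and 0.13 over 166 B6-bound sites (3 above 0.8). In EpiLCs the median was 0.80 over 197 shared-sequence sites. The lines fall into clusters at these sites, so that each r mainly restates on which side a line lies. F1 position and this r moved together: D2-bound sites with r above 0.8 (217 sites) had a median F1 position of 0.99, those from 0.5 to 0.8 (64 sites) 0.79, and those at or below 0.5 (103 sites) 0.52. The 22 sites outside the shared-sequence group with r above 0.8 had 0.98.

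**Figure D5:**
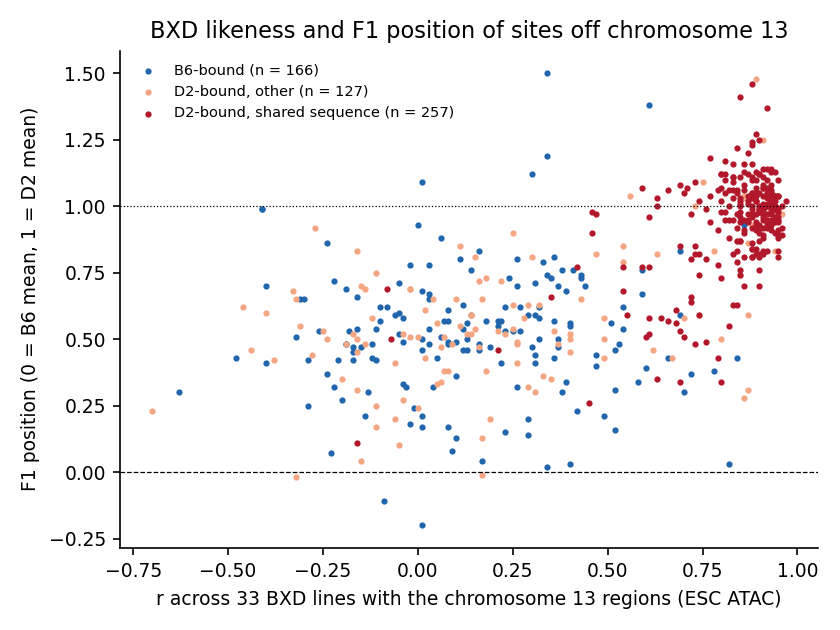
Pearson's r over 33 BXD lines with the chromosome 13 regions (x axis, ESC ATAC) against the F1 position (y axis, 0 at the B6 mean and 1 at the D2 mean) for each site off chromosome 13. Values were oriented so that higher means nearer D2. D2-bound sites with r above 0.8 gather at an F1 position near 1 (median 0.99), and those with r at or below 0.5 around 0.52.

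The shared sequence was also present beyond the selected sites. Windows at 3136 of the 53198 pairs (5.89%) matched the group, the 270 shared-sequence sites among them. Of the 3136, 1244 had TRIM28 higher and ATAC lower in D2 in sign, while 309 had the opposite signs. Their median log2 differences were only 0.22 for TRIM28 and -0.26 for ATAC. The same counts of signs over all pairs are not given here. Of the 490 pairs with the 24-base word, 394 had TRIM28 higher and ATAC lower in D2, with median log2 differences of 1.13 and -1.16, and 161 of these 490 were among the sites. Those 161 were selected on the same values, and the shares therefore carry no test.

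Of the 12729 genes measured in RNA, several of those most like the mean accessibility of the shared-sequence sites over the 33 lines lay on chromosome 13. No limit on r was set, so such genes were not counted. In ESCs the largest absolute r belonged to Zfp874a (0.92; chr13:67424549-67451624), a KRAB zinc finger gene, Gm10772 (-0.92; chr13:66227319-66227573) and Obox6 (0.91; chromosome 7), an oocyte homeobox family gene. RNA of Zfp874a was 25.2, 25.1 and 27.8 in B6 ESCs and 7.27, 7.95 and 5.52 in D2 ESCs, and RNA of Gm10772 1.37, 1.28 and 1.41 and 16.1, 18.6 and 11.5. In EpiLCs Zfp874a (0.94), Gm10772 (-0.92) and 2410141K09Rik (-0.89; chr13:66418114-66441118) came first, and the latter had 33, 29.3 and 37.1 in B6 and 210, 175 and 193 in D2. Genes of such clusters have near-identical copies, so their RNA values are uncertain where reads were shared.

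Genes near the sites were mostly not measured or not expressed. A transcription start lay within 50 kb of 272 of 403 D2-bound and 150 of 175 B6-bound sites, and 30 and 39 of the nearest genes had enough ESC RNA to be tested. Near D2-bound sites, 9 genes were higher and 11 lower in D2 ESCs by limma (adjusted p under 0.05), and 8 higher and 10 lower of 28 in EpiLCs. Near B6-bound sites, 16 were higher and 5 lower of 39 in ESCs, and 13 higher and 9 lower of 39 in EpiLCs. Over all genes tested, 17.3% were higher and 20.3% lower in ESCs, and 28.5% higher and 29% lower in EpiLCs. The median log2 difference near B6-bound sites was 0.35 in ESCs, but 0.03 for starts within 10 kb and -0.02 with limits of 1.5 in the selection, and it was 0.04 in EpiLCs, and near D2-bound sites it was -0.23 and -0.08, against -0.04 and 0.00 over all genes.

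Near D2-bound sites, where accessibility was lower in D2, 5 genes were lower in both states. Padi2, a peptidylarginine deiminase gene whose start lay 4549 bases from its site, had ESC RNA of 29.8, 18.5 and 18.3 in B6 and 1.06, 1.67 and 3.39 in the D2 lines (log2 difference on the value + 1 scale -2.97, SE 0.281, limma adjusted p = 7.04e-05). Gstp1, a glutathione S-transferase gene near a shared-sequence site (chr19:4030031-4030710), had 86.5, 81.2 and 79.6 against 26.9, 23.8 and 30.8 (-1.57, SE 0.102, limma adjusted p = 6.53e-06) and was -0.97 lower in EpiLCs. Elp4, an Elongator subunit gene, differed by -0.61 and -0.97, Slain2 by -0.59 and -0.52, and the zinc finger gene Zfp719 by -0.68 and -0.50. The ESC call of Zfp719 was lost in the fit with a replicate block (limma adjusted p = 0.0869) and without B44, B51, D29 or DAC203. Higher in both states were Gnb4, a G protein subunit gene (0.85 and 0.47), Zdhhc18, a palmitoyltransferase gene (0.49 and 0.38), and Tmppe (0.29 and 0.58). The ESC call of Tmppe was lost with the replicate block (limma adjusted p = 0.0572) and without B41 or B44, and that of Zdhhc18 without B44, B51 or D29.

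Near B6-bound sites, where accessibility was higher in D2, the genes with the largest rise in both states included Nefm, Ust, Plce1 and Plekhm3. Nefm, the medium neurofilament gene, whose start lay 886 bases from its site (chr14:68122505-68125416), had ESC RNA of 1.70, 4.73 and 3.14 in B6 and 74.7, 55.5 and 28.1 in the D2 lines (3.64, SE 0.353, limma adjusted p = 8.07e-05) and EpiLC RNA of 6.02, 7.60 and 6.97 and of 8.56, 11.9 and 11.5 (0.56). Plce1, a phospholipase C gene, had 8.79, 9.35 and 14.9 against 33.6, 28.5 and 29.3 in ESCs (1.42, SE 0.176, limma adjusted p = 3.30e-04), and 5.64, 4.57 and 6.70 against 80.5, 83.0 and 74.9 in EpiLCs (3.61, SE 0.113, limma adjusted p = 4.06e-10). Ust, beside the site with the largest P300 difference, had 1.06, 0.833 and 1.58 against 6.45, 6.89 and 6.77 (1.85, SE 0.163, limma adjusted p = 4.69e-05). In each of these genes the strains did not overlap. Bnip3l-ps, a pseudogene with a functional copy elsewhere, was listed near 0 in every B6 library and at 2.99, 1.92 and 5.81 in D2 ESCs. Lower in both states were Rrm2, a ribonucleotide reductase gene (-0.66 and -0.61), Eif2a (-0.59 and -0.23), Paics, a purine synthesis gene (-0.47 and -0.33), and the F-box gene Fbxl5 near B6-bound sites 2 and 3 (-0.50 and -0.27). The EpiLC call of Fbxl5 was lost with the replicate block (limma adjusted p = 0.0563) and without B41, B44, D55 or DAC203, that of Eif2a without B44, B51, D55 or DAC203, and that of Paics without D55.

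Of 32 measured genes of KRAB silencing and H3K9 methylation, 6 were higher and 9 lower in D2 ESCs by limma (median -0.12), and 10 higher and 11 lower in EpiLCs (median -0.03). Over all genes the shares were 17.3% and 20.3% in ESCs and 28.5% and 29% in EpiLCs, so the list's counts were near the background. All 10 markers of naive ESCs were measured in ESCs and summed to 4589 to 4835 in B6 and 4691 to 4870 in D2. The 8 feeder fibroblast markers summed to 845 to 1128 and 969 to 1314. EpiLC markers summed to 151 to 202 in B6 ESCs and 276 to 353 in D2 ESCs. Of their 7 listed names, 5 were tested, and Oct6 was a second name of the listed Pou3f1. Trophectoderm markers (3 of 5 past the filter on low values) summed to 14.3 to 19.4 and 5.28 to 9.90, and primitive endoderm markers (1 of 5) to 2.22 to 2.88 and 2.32 to 5.21. In EpiLCs, naive markers summed to 846 to 896 in B6 and 1059 to 1186 in D2. Their part in the site differences was not tested.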

How the data were processed

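The ATAC, TRIM28, P300, POU5F1 and RNA tables hold a signal per region or gene that the authors normalised before they deposited it, and the table with the F1 lines holds log2 values as deposited. Per the submitters' processing notes, the genome was mm10 and the tools included MACS 1.4.2, HISAT2 2.0.5 and Bowtie 1.0.0, in roles not given in the sources used here. In 9 tables, 0 columns of values had no sample. Groups and lines came from the labels, and the 2 input libraries were not used.

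Signal was tested with limma 3.58.1 (R 4.3.3, lmFit, eBayes with trend and robust) on log2(value + 0.1) for ATAC and TRIM28 and log2(value + 1) for RNA, P300 and POU5F1, which understates changes of low values. Each fit ran over the whole table with Benjamini-Hochberg adjustment, and calls were made at 0.05. The filter on RNA was a mean of 0.5 or more. The scripts were tested on simulated data. Regions were joined by the largest overlap of at least 1 base, and coordinates are as deposited. In the ATAC and TRIM28 tables, whole reads were recovered: 100% of the values came to within 0.01 of a whole number of steps. The edgeR 4.0.16 quasi-likelihood test on those reads called 56985 EpiLC ATAC, 54390 ESC ATAC and 37156 TRIM28 regions. Windows were compared with blastn 2.17.0. The rule for sites and genes described singly took the 10 sites of each class with the largest smaller difference, sites at the limit (given by their values), called EpiLC reversals, members at the extremes of P300, POU5F1 and F1, and nearest genes called alike in both states. The members, gene lists and tests were chosen with earlier results of these data known. Alternatives covered scaling, pseudocount, filter, test, limits, overlap, single lines and a replicate block.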

Additional observations from a re-analysis of the deposited data

Results flagged for a closer look

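At 3 sites whose strain lines did not overlap in either state, every D2 line was on one side of the B6 lines in ESC accessibility and on the other side in EpiLCs. The EpiLC log2 difference was 0.39 at the D2-bound site chr14:98974174-98974974, 0.45 at the D2-bound site chr7:134681673-134683228 and -0.41 at the B6-bound site chr15:79868735-79869796. The difference between the states was not tested, since the ESC values had chosen the sites.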

How the results depend on the processing

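No called difference of a named site or gene changed sign under the alternatives run, and 55 of 62 kept their call under all of them. The medians that changed sign were that of the F1 at the D2-bound sites outside the shared-sequence group (0.13 to -0.06 against the linear parental mean) and that of ESC RNA near B6-bound sites (0.35 to -0.02 with limits of 1.5). In the following, D2-bound counts of called sites are those lower in D2 (EpiLC, P300, POU5F1) or lower in the F1, and B6-bound counts those higher. With limits of 1.5 in the selection, which leave fewer sites, the counts were 104 and 28 for EpiLC ATAC, 1 and 3 for P300, 7 and 5 for POU5F1, and 72 and 24 for the F1, and the RNA calls near D2-bound sites fell to 5 in ESCs and 3 in EpiLCs and near B6-bound sites to 3 and 7. A pseudocount of 1 in the selection left 176 D2-bound EpiLC calls. limma without trend and robust called 9 D2-bound sites for P300 and 30 B6-bound sites for the F1. Against the log2 of the linear parental mean the median F1 difference was -0.74 (D2-bound) and 0.03 (B6-bound), and with quantile scaling -0.53 (D2-bound). With starts within 10 kb, RNA calls were 10 and 4 near D2-bound and 7 and 10 near B6-bound sites (ESCs and EpiLCs). With the nearest measured gene, an alternative chosen after seeing the data, they were 45 and 55, and 46 and 53, against 20 and 18, and 21 and 22. The cause was not tested where a count moved without fewer sites or genes entering.

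Leaving out 1 line gave 258 to 302 D2-bound and 92 to 98 B6-bound EpiLC calls, some of these with the selection also redone (chosen after seeing the data). P300 gave 5 to 18 and 18 to 36, POU5F1 10 to 20 (10 without D55, 12 without D29, 15 without B51) and 17 to 35, and the F1 164 to 216 and 44 (without F124) to 75. RNA gave 16 to 20 and 17 to 19 near D2-bound, and 20 to 21 and 16 to 21 near B6-bound sites.

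Fitted as a replicate block, the labels' numbers gave 283 and 95 for EpiLC ATAC, 17 and 23 for P300, 18 and 18 for RNA near D2-bound sites and 20 and 21 near B6-bound sites. The deviations of same-numbered lines had an r of -0.11 to -0.02 in EpiLC ATAC, -0.39 to -0.07 in ESC RNA, -0.24 to 0.01 in EpiLC RNA and 0.10 for both pairs in P300. In the tables with 3 pairs they did not deviate together, and 2 pairs in P300 are too few, so the numbers were not taken to pair the lines. The block ended the ESC calls of Zfp719 and Tmppe (limma adjusted p = 0.0869 and 0.0572) and the EpiLC call of Fbxl5 (0.0563). For POU5F1 no paired analysis was possible because both D2 libraries carry the same number. Depth limits low regions, and values near copied sequence may share reads.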
